A study of Mus musculus with 2 samples.

Results

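The cells described here were 77 hair cells of the mouse utricle at postnatal day 2 (P2) that carried transcripts of Nppa or Gal. The utricle is a balance organ of the inner ear, and its sensory epithelium holds mechanosensory hair cells and the supporting cells around them. Sensory epithelia of WT mice, freed with the enzyme thermolysin, gave 1 droplet-based single-cell RNA library at P2 and 1 at embryonic day 14 (E14), each from tissue of several pooled animals. With 1 library per age, no difference has a replicate check, and every interval covers the error of counting molecules only.

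Of 6251 barcodes in the P2 library, 4081 had at least 500 genes, at least 1000 unique molecular identifiers (UMIs, which count transcripts) and at most 15% mitochondrial UMIs. A cell counted as a hair cell (HC) when it had at least 2 UMIs of Pou4f3 and at least 4 UMIs of Pou4f3 and Gfi1 together per 10000, since both genes encode transcription factors of HCs. This gave 1030 HCs. The 77 Nppa/Gal HCs were those with at least 2 UMIs of Nppa and Gal together, fewer than 3 UMIs of Atoh1, fewer than 5 UMIs of Ocm per 10000, and fewer than 3 UMIs of Scg2 and Slc17a8 together. They made up 7.48% of the HCs (exact 95% binomial interval 5.94 to 9.26) and 1.89% of the barcodes past the filter. The 953 other HCs were the cells they were set against. The cells were thus chosen by the measured counts of these 8 genes, whose levels are given as a description.

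Nppa encodes the precursor of atrial natriuretic peptide, a hormone of the heart that acts through a receptor making cyclic GMP. Gal encodes the precursor of galanin, a neuropeptide of many neurons that acts through G protein-coupled receptors. Calb2 encodes the calcium buffer calretinin. Utricular HCs mature into type I cells, which are enclosed by a nerve calyx, and type II cells, which are contacted by bouton endings. In the mouse, Anxa4, Mapt, Sox2 and Calb2 are used as markers of type II cells, and Spp1 as a marker of type I cells, while Ocm marks HCs of the central striola. Atoh1 drives the HC fate and is high in young HCs.

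In the GENCODE M21 annotation of GRCm38, Nppa (ENSMUSG00000041616) occupies bases 148000722 to 148002079 of chromosome 4 (plus strand). Gal (ENSMUSG00000024907) occupies bases 3409915 to 3414544 of chromosome 19 (minus strand). Calb2 (ENSMUSG00000003657) occupies bases 110137502 to 110168210 of chromosome 8 (minus strand). All 3 are protein-coding genes. The counts themselves carry no coordinates, and the build behind them was not settled, since the study's methods give GRCm39 and the labels name GRCm39 and mm10.

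Gal was the more abundant of both peptide genes in the 77 cells. The library tags 1 end of each transcript, so a count does not scale with the length of the gene. Levels are UMIs of a gene per 1000000 UMIs summed over the cells of a group (CPM), with exact 95% Poisson intervals. Gal had 530 CPM (489 to 575, 596 UMIs) in the Nppa/Gal HCs and 164 CPM in the other HCs. Nppa had 111 CPM (92.6 to 133, 125 UMIs) in the Nppa/Gal HCs and 49.5 CPM in the other HCs. A Gal UMI was present in 66 of the 77 cells and a Nppa UMI in 53. Both transcripts were found in 42 cells, Gal alone in 24 and Nppa alone in 11.

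The 77 cells spanned a wide range of peptide transcripts. The sum of Nppa and Gal ran over 2 to 60 UMIs per cell with a median of 5, and over 0.728 to 36.6 UMIs per 10000 with a median of 5.42. The sum was 2 in 17 cells, 3 in 9, 4 to 9 in 28 and at least 10 in 23 cells. Gal had a median of 4 UMIs per cell and a highest value of 57. The 10 cells with the most Gal held 50.5% of all Gal UMIs. Nppa had a median of 1 UMI and reached 7. Most of the spread therefore lay in Gal.

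**Figure D1:**
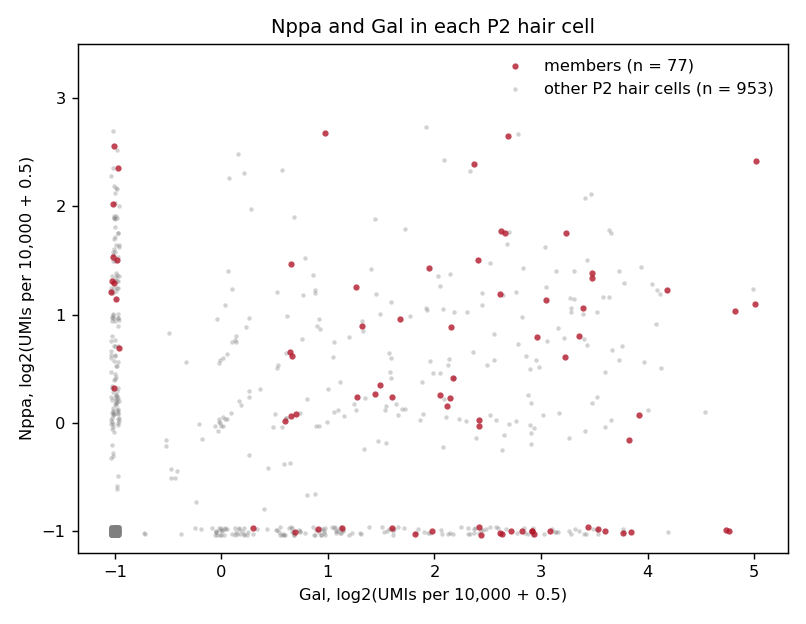
Gal (x axis) and Nppa (y axis) in each P2 HC, as log2 of UMIs per 10000 plus 0.5, with a small random offset so that points do not cover each other. The 77 Nppa/Gal HCs (red) lie among the 953 other HCs (grey), and 24 of them sit on the line without Nppa and 11 on the line without Gal.

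Nppa or Gal did not set the 77 cells apart from the remaining HCs on their own. At least 2 UMIs of both genes together were present in 443 HCs (43.0%, 40.0 to 46.1), and the 77 cells were 17.4% of these. The remaining 366 lay outside the other limits. Of these 366, 278 had at least 3 Atoh1 UMIs, 175 had at least 3 Scg2 and Slc17a8 UMIs, 87 had both, and 1 was over the Ocm limit. Scg2 encodes a granin of secretory granules and Slc17a8 the glutamate transporter that loads synaptic vesicles of HCs.

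The cells close to the limits were numerous. Among the 77, Atoh1 had 0 UMIs in 23 cells, 1 in 27 and 2 in 27, and a further 36 cells that met every other condition had 3. The sum of Scg2 and Slc17a8 was 0 in 41 of the 77 cells, 1 in 25 and 2 in 11, and a further 15 cells had 3. No Scg2 UMI was found in the 77 cells, so these counts were Slc17a8. Under the same limits, 41 cells had 1 UMI of Nppa and Gal and 132 had 0. An Ocm UMI was present in 4 of the 77 cells.

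These limits are in UMIs, and depth moved with them. The median depth was 14768 UMIs (1568 to 93637) in the Nppa/Gal HCs and 16295 in the other HCs. It was 18853 in the 366 Nppa/Gal cells outside the limits, none of which had fewer than 7083. It was 4476 in the 173 cells under the same limits with fewer than 2 Nppa and Gal UMIs, called Nppa/Gal-low cells here. The deepest cell held 8.33% of the UMIs of the 77 cells.

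To set shares side by side at 1 depth, each cell was thinned to 4000 UMIs and shallower cells were left out. At least 2 UMIs of Nppa and Gal then remained in 53.5% of the Nppa/Gal HCs (41.3 to 65.5, 38 of 71 cells, 6 left out) and in 18.8% of the other HCs (16.2 to 21.6, 847 cells, 106 left out). Before thinning, the rule put these shares at 100% and 38.4%, so their order was set by the rule. The thinned share was 43.4% (38.3 to 48.7) in the 366 Nppa/Gal cells outside the limits, which were also at 100% before thinning. It was 30.5% in the 430 HCs with at least 3 Atoh1 UMIs and 16.8% in the 423 HCs with at least 3 Scg2 and Slc17a8 UMIs, which are groups that overlap in 108 cells. The 76 Ocm-high HCs had the fewest, 1.89% after thinning (1 of 53 cells) and 1.32% before. Barcodes without any Pou4f3 or Gfi1 UMI served as a reference outside the HCs: 0.256% of 1953 cells before thinning and 0.0821% after, at a median depth of 8851 UMIs. The amount of free RNA itself was not measured. The transcripts were thus spread over HCs on both sides of the Atoh1 and Slc17a8 limits, with shares above that of these barcodes. In Ocm-high HCs the interval of the share (0.0333 to 7.11% before thinning) reached down to the share of these barcodes.

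**Figure D2:**
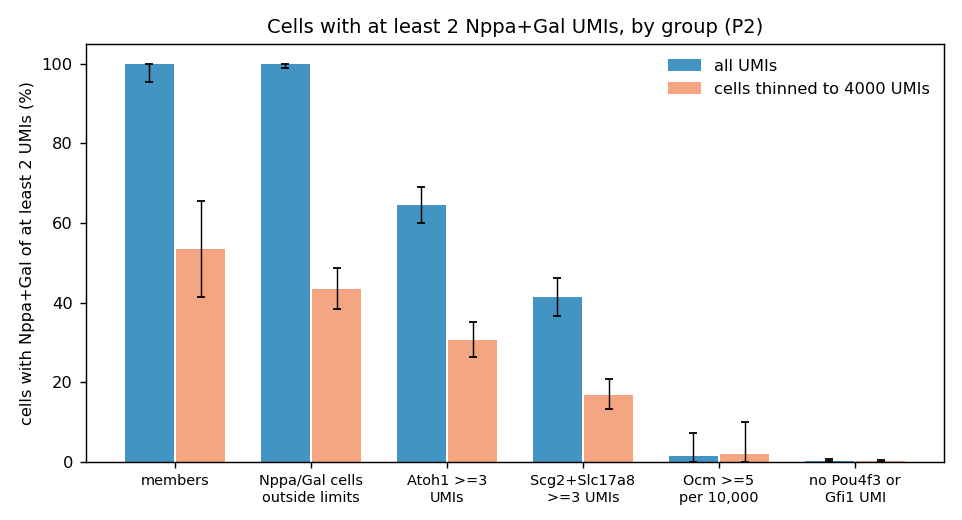
Percent of cells (y axis) with at least 2 UMIs of Nppa and Gal together, for groups of P2 cells (x axis), with all UMIs (blue) and after thinning to 4000 UMIs (orange). Bars carry exact 95% binomial intervals. The Nppa/Gal HCs and the cells outside the limits are at 100% by the rule, and after thinning they stand at 53.5% and 43.4%.

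The marker genes named for these cells were present. Calb2 had 566 CPM (523 to 612) in the Nppa/Gal HCs, with a UMI in 69 of 77 cells, and 450 CPM in the other HCs, a ratio of 1.26 (exact conditional interval 1.16 to 1.36). The sum of 10 HC markers, among them Myo7a, Otof and Espn and also Pou4f3 and Gfi1 of the rule, was 4892 CPM in the Nppa/Gal HCs, with all 10 detected, against 4964 CPM in the other HCs and 260 CPM in the barcodes without Pou4f3 and Gfi1. The per-cell sum ran over 1677 to 8532 CPM in the 77 cells. Calb2 was no more particular to them than Nppa or Gal, since it had 548 CPM in the 366 Nppa/Gal cells outside the limits, 532 CPM in the Scg2/Slc17a8 HCs and 510 CPM in the Ocm-high HCs. The Atoh1-high HCs had 414 CPM and the Nppa/Gal-low cells 375 CPM.

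Few genes stood higher in the Nppa/Gal HCs than in the other HCs. Of 10032 genes with at least 100 UMIs over the HCs, leaving out the 8 genes of the rule, 22 (0.219%) were at least 2-fold higher and 369 (3.68%) at least 2-fold lower. The median log2 ratio over all these genes was -0.05. The 22 genes rested on 13 to 149 UMIs each in the 77 cells, with a median of 19. All 22 had a ratio above 1 against the 366 Nppa/Gal cells outside the limits. Of the 9 that had at least 100 UMIs over these cells and the 77, 1 was at least 2-fold higher there. The 369 lower genes had a median of 4 UMIs in the 77 cells. Genes reached the minimum of 100 UMIs mostly through the other HCs, which held 16455373 UMIs against 1123915 in the 77 cells. Near this minimum, few UMIs in the 77 cells made a gene lower, while more were needed to make it higher. The numbers 22 and 369 are therefore not on a par. Because these groups were cut from the same library by the levels of 8 genes, the counts describe the cells and test nothing.

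The 12 genes with the highest ratio included Sct, Atoh7, Hist2h2be, Fxyd3 and Tsix. Sct, which encodes the peptide hormone secretin, had 36.5 CPM (26.2 to 49.5, 41 UMIs in 30 cells) in the Nppa/Gal HCs and 16.2 CPM in the other HCs, a ratio of 2.26 (1.58 to 3.14). Its ratio was between 1.73 and 3.09 under 16 other settings. Atoh7, a relative of Atoh1 known from the retina, had 16.9 CPM (19 UMIs in 14 cells) in the Nppa/Gal HCs and 7.17 CPM in the other HCs, a ratio of 2.36 (1.37 to 3.85). Gm36799, a gene model without a named function, had 27.6 CPM in the Nppa/Gal HCs and 11.7 CPM in the other HCs (ratio 2.35). Sct, Atoh7 and Gm36799 were at or below 1.95 CPM in the Ocm-high HCs.

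Some of the other high ratios turned under another setting. Hist2h2be, a histone H2B gene, had a ratio of 3.15 (1.84 to 5.14, 20 UMIs in 16 cells), and 0.596 once cells were thinned to 4000 UMIs. Fxyd3, which encodes a regulator of the sodium pump, had a ratio of 2.39 from 17 UMIs in 8 cells, and 0.979 with likely doublets left out. Tsix, the antisense partner of Xist, had a ratio of 2.23 and overlaps Xist, so its reads are uncertain. Pbld2 had a ratio of 2.46 from 19 UMIs, and 0.973 when the whole rule was applied after thinning. Atp23, Urb1, Nhlrc1 and Pnmal1 had ratios of 2.51, 2.38, 2.34 and 2.14 from 25, 14, 15 and 18 UMIs. Over the 16 other settings their lowest ratios were 1.10, 1.10, 1.92 and 1.59.

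The lowest ratios belonged to genes that were high in the Ocm-high and Scg2/Slc17a8 HCs. Spp1 encodes osteopontin, a secreted matrix protein, and occupies bases 104435118 to 104441050 of chromosome 5 (plus strand, ENSMUSG00000029304, GRCm38). It had 13.3 CPM (7.47 to 22.0) in the Nppa/Gal HCs and 260 CPM in the other HCs, a ratio of 0.0513 (0.0287 to 0.0848). It had 615 CPM in the Ocm-high HCs and 494 CPM in the Scg2/Slc17a8 HCs. The share of cells with a Spp1 UMI did not follow this order, with 19.5% of the Nppa/Gal HCs (15 cells, 1 UMI each) and 21.7% of the other HCs. The 10 other HCs with the most Spp1 held 48.5% of their Spp1 UMIs, and 42 other HCs had at least 10 UMIs, against none of the 77. Barcodes without Pou4f3 and Gfi1 had 82.3 CPM, above the level in the Nppa/Gal HCs.

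A like order was seen for other genes that were abundant in Ocm-high HCs. Ighm had 4.45 CPM in the Nppa/Gal HCs, 95.4 CPM in the other HCs and 1256 CPM in the Ocm-high HCs. Trim45, of a family of ubiquitin ligases, had 8.90 CPM in the Nppa/Gal HCs and 138 CPM in the other HCs (ratio 0.0645), with 1110.4 CPM in the Ocm-high HCs, and a ratio of 0.554 against the 366 Nppa/Gal cells outside the limits. Clu, which encodes the secreted chaperone clusterin, had 7.12 CPM in the Nppa/Gal HCs and 82.9 CPM in the other HCs (ratio 0.0859). Car7, a carbonic anhydrase gene, had 1.78 CPM in the Nppa/Gal HCs and 33.1 CPM in the other HCs (ratio 0.0537, 0.00649 to 0.195). Crtac1 had no UMI in the 77 cells and 23.8 CPM in the other HCs, at least 8.92-fold lower in the Nppa/Gal HCs when 3 UMIs over the group served as the floor, and the exact conditional interval of the ratio reached up to 0.138. No cell of the 77 had more than 1 UMI of Spp1, Ighm, Trim45, Clu or Car7. Gm1113, Plcxd2, Rrp12, Chst9, Zc3h10 and Trim46 completed the 12, with 1 to 3 UMIs each in the 77 cells, and Trim46 had a ratio of 1.04 when the rule was applied after thinning. Since the rule left Ocm-high and Scg2/Slc17a8 HCs out of the 77 and into the other HCs, the rule itself set part of these ratios. Of 40 genes that were 2-fold apart and named by rule, 16 were not so against the 366 Nppa/Gal cells outside the limits.

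**Figure D3:**
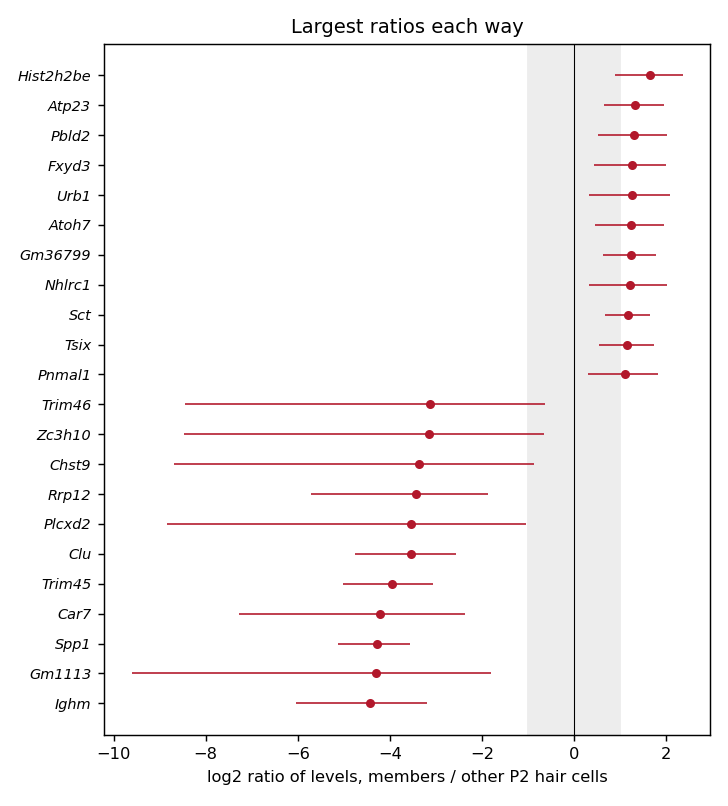
Log2 ratio of levels, Nppa/Gal HCs over other HCs (x axis), for genes among those with the largest ratios each way (y axis). Crtac1, which had no UMI in the Nppa/Gal HCs, is not drawn. Bars are exact conditional 95% intervals and grey marks ratios within 2-fold. The highest gene, Hist2h2be, stands at a ratio of 3.15 and the lowest, Ighm, at 0.0466.

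Of the 4 genes used as type II markers, Calb2 and Anxa4 had ratios above 1 and Sox2 and Mapt below 1. None was 2-fold apart, where 0.219% of all genes were higher and 3.68% lower, and their median log2 ratio was 0.14. Anxa4, an annexin gene on chromosome 6 (minus strand, 86736840 to 86793584, ENSMUSG00000029994), was found in all 77 cells. It had 699 CPM (651 to 750) in the Nppa/Gal HCs and 538 CPM in the other HCs, a ratio of 1.30 (1.21 to 1.40). After thinning, an Anxa4 UMI was present in 91.5% of the Nppa/Gal HCs (82.5 to 96.8), 76.0% of the other HCs and 30.2% of the Ocm-high HCs. Sox2, a transcription factor gene that supporting cells also express, had 417 CPM in the Nppa/Gal HCs and 496 CPM in the other HCs, a ratio of 0.842 (0.765 to 0.924), and 1 of the 77 cells held 14.5% of its UMIs. Mapt, the gene of the microtubule protein tau, had only 11 UMIs in the 77 cells, at 9.79 CPM, against 10.1 CPM in the other HCs.

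Of 5 genes tested that are used as type I markers, Spp1 and Kcna10 were at least 2-fold lower, where 3.68% of all genes were. None was higher, and the median log2 ratio was -0.91. Kcna10, a voltage-gated potassium channel gene, had 33.8 CPM (23.9 to 46.4) in the Nppa/Gal HCs and 123 CPM in the other HCs, a ratio of 0.276 (0.195 to 0.380). A Kcna10 UMI remained after thinning in 16.9% of the Nppa/Gal HCs, 30.7% of the other HCs and 67.9% of the Ocm-high HCs. Against the 366 Nppa/Gal cells outside the limits, the ratio was 0.765. Tnc, a matrix gene of the calyx region, had 179 CPM in the Nppa/Gal HCs and 187 CPM in the other HCs. Adam11 had 8.90 CPM in the Nppa/Gal HCs and 16.8 CPM in the other HCs. Bmp2 had no UMI in the 77 cells and too few in all HCs to be tested, and Vsig10l2 was not found under that symbol.

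**Figure D4:**
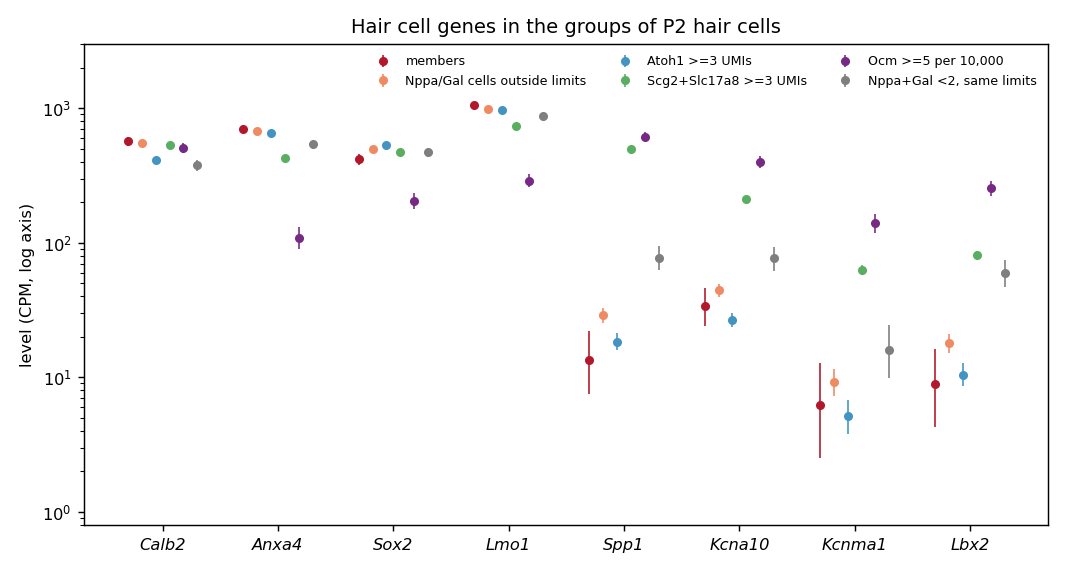
Level in CPM (log y axis) of 8 genes (x axis) in 6 groups of P2 HCs, with exact 95% Poisson intervals. In the Nppa/Gal HCs (red) Spp1 is at 13.3 CPM and Kcna10 at 33.8 CPM, and in the Ocm-high HCs (purple) they are at 615 and 397 CPM, while Anxa4 is at 699 CPM in the Nppa/Gal HCs and 109 CPM in the Ocm-high HCs. The groups other than the Nppa/Gal HCs overlap in part.

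Of 15 potassium and pacemaker channel genes tested, 3 were at least 2-fold lower (Kcna10, Kcnma1 and Kcnab1), where 3.68% of all genes were, and none was higher. A ratio below 1 was found for 14 of the 15 and for 56.1% of all genes, and the median log2 ratio was -0.48 against -0.05 over all genes. Kcnma1, which encodes the pore subunit of the BK channel, had 6.23 CPM (7 UMIs in 6 cells) in the Nppa/Gal HCs and 34.6 CPM in the other HCs, a ratio of 0.180 (0.0721 to 0.374). Kcnab1, an auxiliary subunit gene, had 1.78 CPM (2 UMIs) in the Nppa/Gal HCs and 7.54 CPM in the other HCs. The most abundant channel gene of the list was Kcnh7, at 108 CPM in the Nppa/Gal HCs and 124 CPM in the other HCs. Against the Nppa/Gal cells outside the limits, Kcnma1 had a ratio of 0.673. The list did not stand low against the Nppa/Gal-low cells, where 3 of its genes could be tested. There the median log2 ratio was 0.37, Kcna10 was lower (ratio 0.442, 0.296 to 0.649) and Kcnh7 higher (2.17, 1.59 to 2.98).

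Of 30 genes of neuropeptides and granins, which include Nppa, Gal and Scg2, 10 outside the rule had enough UMIs to be tested. None was at least 2-fold higher and 1 was lower, where 0.219% and 3.68% of all genes were. The median log2 ratio was 0.03. Grp, the gene of gastrin-releasing peptide, had 235 CPM (207 to 265) in the Nppa/Gal HCs and 232 CPM in the other HCs. Scg5, which encodes a chaperone of a prohormone convertase, had 177 CPM in the Nppa/Gal HCs and 200.1 CPM in the other HCs. Scg3, a granin gene, had 117 CPM in the Nppa/Gal HCs and 124 CPM in the other HCs. Calca, the gene of calcitonin and CGRP, was the lower one, from 2 UMIs in the 77 cells (1.78 CPM against 7.47 CPM in the other HCs), and its ratio was 1.40 when cells were thinned. Against the Nppa/Gal-low cells, 5 genes of the list could be tested and none was 2-fold apart, with a median log2 ratio of 0.64. Among cells of at least 4000 UMIs the ratios over the Nppa/Gal-low cells were 1.58 (1.19 to 2.10) for Scg3, 1.48 (1.07 to 2.06) for Chga and 1.46 (1.02 to 2.09) for Chgb, all granin genes.

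None of 11 tested genes for the processing of peptides was 2-fold apart, where 0.219% of all genes were higher and 3.68% lower. Their median log2 ratio was -0.06. Against the Nppa/Gal-low cells it was 0.54 over 4 genes. None of the 4 was 2-fold apart there, where 0.449% of all genes were higher and 0.634% lower. Cpe, the carboxypeptidase that trims peptide precursors, had 302 CPM in the Nppa/Gal HCs and 358 CPM in the other HCs. Rab3a, a GTPase gene of secretory vesicles, had 170 CPM in the Nppa/Gal HCs and 158 CPM in the other HCs, and Cadps2, which serves granule release, had 128 CPM in the Nppa/Gal HCs and 116 CPM in the other HCs. Pcsk1 and Pcsk2, which encode prohormone convertases, and Corin, the protease that cleaves the natriuretic peptide precursor in the heart, had no UMI in the 77 cells. The exact interval of a count of 0 reached up to 3.28 CPM there. Corin also had no UMI in the other HCs, where Pcsk1 had 3.89 CPM.

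The receptors of both peptides were hardly detected. Npr1, Npr3, Galr1, Galr2 and Galr3 had no UMI in the 77 cells, and Npr2, which binds the C-type peptide, had 4.45 CPM (5 UMIs) in the Nppa/Gal HCs and 4.50 CPM in the other HCs. Of the cyclic GMP genes, 2 could be tested. Prkg1, a cyclic GMP-dependent kinase gene, was at least 2-fold lower, with 11.6 CPM (13 UMIs) in the Nppa/Gal HCs and 27.1 CPM in the other HCs (ratio 0.427, 0.225 to 0.737). Pde5a, which encodes a phosphodiesterase for cyclic GMP, had 22.2 CPM in the Nppa/Gal HCs and 28.7 CPM in the other HCs.

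Of 36 genes tested of the hair bundle and of mechanotransduction, none was at least 2-fold higher and 2 were lower. Among all genes, 0.219% were higher and 3.68% lower. The median log2 ratio of the list was -0.09. Cib2, a calcium-binding subunit of the transduction complex, had 1379 CPM in the Nppa/Gal HCs, with a UMI in 76 of 77 cells, and 1098 CPM in the other HCs, a ratio of 1.26 (1.19 to 1.32). Its relative Cib3 had 612 CPM in the Nppa/Gal HCs and 463 CPM in the other HCs (ratio 1.32). Espn, an actin bundler of stereocilia, had 989 CPM in the Nppa/Gal HCs and 1142 CPM in the other HCs. Tmc2, a pore-forming subunit of transduction channels, was lower, with 6.23 CPM (7 UMIs in 5 cells) in the Nppa/Gal HCs and 20.0 CPM in the other HCs (ratio 0.312, 0.124 to 0.649). Tmc1, another such subunit, had 20.5 CPM in the Nppa/Gal HCs and 21.1 CPM in the other HCs. Strc, which encodes a protein linking the tips of stereocilia, was also lower, at 7.12 CPM against 15.5 CPM in the other HCs (8 UMIs in the 77 cells).

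Of 21 ribbon synapse genes tested, only Cabp1 was 2-fold apart, and it was lower, where 3.68% of all genes were. Its ratio was 0.261 (0.0313 to 0.967) from 2 UMIs in the 77 cells, and the median log2 ratio of the list was -0.13. Otof, the calcium sensor of vesicle release, had 716 CPM in the Nppa/Gal HCs and 787 CPM in the other HCs. Cabp2, a regulator of the presynaptic calcium channel, had 673 CPM in the Nppa/Gal HCs and 735 CPM in the other HCs, and Nrxn3 had 248 CPM in the Nppa/Gal HCs and 306 CPM in the other HCs. Chrna9, a subunit of the receptor for efferent acetylcholine, had 150.4 CPM in the Nppa/Gal HCs and 125 CPM in the other HCs (ratio 1.20, 1.02 to 1.41).

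Among 21 genes of calcium buffers, pumps and sensors, the median log2 ratio was 0.06. Only Atp2a3 was 2-fold apart, and it was lower, where 3.68% of all genes were. S100a1 was the most abundant, with 5216 CPM in the Nppa/Gal HCs and 4591 CPM in the other HCs. Calm2, a calmodulin gene, had 2479 CPM in the Nppa/Gal HCs and 3222 CPM in the other HCs. Atp2a3, a calcium pump of the endoplasmic reticulum, had 1 UMI in the 77 cells (0.890 CPM) against 8.99 CPM in the other HCs and 125 CPM in the Ocm-high HCs. Against the Nppa/Gal-low cells, its ratio was 1.16. Calb1, the gene of calbindin, had no UMI in the 77 cells and 5.04 CPM in the other HCs, too few UMIs to be tested, and the interval of the ratio reached up to 0.665.

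Transcription factor genes of HCs had a median log2 ratio of 0.00 over 25 genes tested. None was at least 2-fold higher and 1 was lower, where 0.219% and 3.68% of all genes were. Lmo1, which encodes a LIM domain protein, had 1053 CPM in the Nppa/Gal HCs and 860 CPM in the other HCs (ratio 1.22, 1.15 to 1.30). Hes6 had 271 CPM in the Nppa/Gal HCs and 237 CPM in the other HCs. The homeobox gene Lbx2 was the only one 2-fold apart, with 8.90 CPM (10 cells with 1 UMI each) in the Nppa/Gal HCs and 50.0 CPM in the other HCs, a ratio of 0.178 (0.0851 to 0.329). It had 254 CPM in the Ocm-high HCs.

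In the remaining lists, few genes were 2-fold apart, where 0.219% of all genes were higher and 3.68% lower. Of 14 BMP signaling genes, Bmp3 was at least 2-fold higher and Bmpr2, a type 2 receptor gene, lower. Bmp3, which encodes a ligand of the family, had 16.0 CPM in the Nppa/Gal HCs and 7.84 CPM in the other HCs (ratio 2.04), but 14 of its 18 UMIs lay in 1 cell, and its ratio was 0.534 with likely doublets left out. Bmpr2 had 11.6 CPM in the Nppa/Gal HCs and 30.9 CPM in the other HCs (ratio 0.374, 0.198 to 0.645). Id4, a target of the pathway, had 533 CPM in the Nppa/Gal HCs and 541 CPM in the other HCs.

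None of the genes tested for hair bundle and planar polarity (18), the Notch pathway (17), the kinocilium (18), retinoic acid and striola pattern (8) or the cell cycle (9) was 2-fold apart, with median log2 ratios of -0.09, -0.17, 0.01, -0.10 and -0.18. Abundant genes among them were Gnai2 (303 CPM in the Nppa/Gal HCs, 329 CPM in the other HCs), Hes6, Tekt1 (545 CPM in the Nppa/Gal HCs and 511 CPM in the other HCs) and the cell cycle inhibitor gene Cdkn1c (1644 CPM in the Nppa/Gal HCs and 1511 CPM in the other HCs). The bundle orientation factor Emx2 had 25.8 CPM in the Nppa/Gal HCs and 28.3 CPM in the other HCs. Of 12 neuronal cytoskeleton genes, Nefh was lower from 4 UMIs, with a ratio of 1.08 when cells were thinned. Stmn3, a stathmin gene of the same list, had 499 CPM in the Nppa/Gal HCs and 343 CPM in the other HCs, a ratio of 1.45 (1.33 to 1.59).

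Of 14 immediate early and stress genes tested, 1 was at least 2-fold lower, where 3.68% of all genes were, and none was higher. A ratio below 1 was found for 13 of them, against 56.1% of all genes, and the median log2 ratio was -0.40. The gene that was 2-fold apart was Nr4a1, which encodes a nuclear receptor. Nr4a1 had 27.6 CPM in the Nppa/Gal HCs and 63.5 CPM in the other HCs (ratio 0.434, 0.294 to 0.620). Jun had 356 CPM in the Nppa/Gal HCs and 680 CPM in the other HCs (ratio 0.523), and Fos had 542 CPM in the Nppa/Gal HCs and 767 CPM in the other HCs (ratio 0.706). The cell with the most Jun held 19.25% of the Jun UMIs of the 77 cells, and the cell with the most Fos 15.9% of the Fos UMIs. Both levels thus rest in part on 1 cell. Jund had a ratio of 0.978 and Junb of 1.06, with intervals that included 1. Barcodes without Pou4f3 and Gfi1 had 2592 CPM of Jun and 3121 CPM of Fos. The part of RNA from those cells in this result was not tested.

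**Figure D5:**
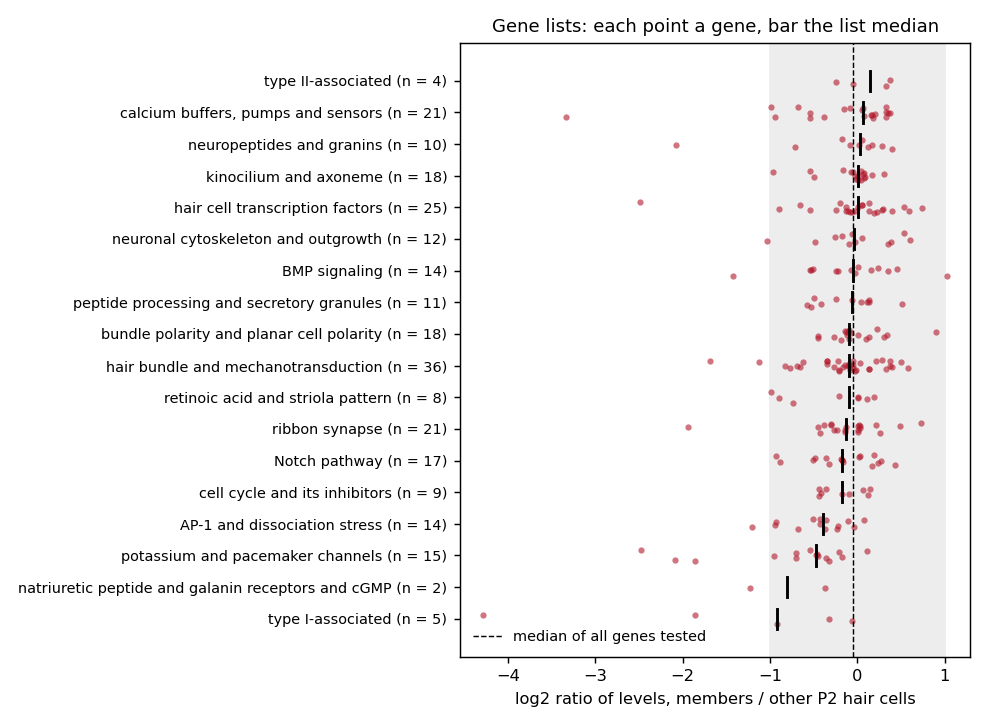
Log2 ratio of levels, Nppa/Gal HCs over other HCs (x axis), of each tested gene (points) in 18 lists (y axis, with the number of genes tested), ordered by list median (bars). The dashed line is the median of all 10032 genes at -0.05 and grey marks ratios within 2-fold. The potassium channel list has a median of -0.48 and the type I-associated list of -0.91.

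The markers of other cell types were summed in each group. The sum of 10 supporting cell markers was 734 CPM in the Nppa/Gal HCs, with 9 detected, and 1016 CPM in the other HCs, against 3312 CPM in the barcodes without Pou4f3 and Gfi1. The median of the per-cell sum had the other order, with 249.7 CPM in the Nppa/Gal HCs and 225 CPM in the other HCs. Part of the summed level was Tectb, with 89.0 CPM in the Nppa/Gal HCs, 306 CPM in the other HCs and 1414 CPM in the Ocm-high HCs, and 59 of its 100 UMIs in the 77 cells lay in 1 cell, while 10 of the other HCs held 68.2% of theirs. The sum of 7 nonsensory epithelial markers was 201 CPM in the Nppa/Gal HCs and 211 CPM in the other HCs. The 5 neuron markers summed to 1383 CPM in the Nppa/Gal HCs and 1487 CPM in the other HCs, nearly all from Nefm and Nefl, which HCs express. Mesenchymal markers summed to 8.90 CPM in the Nppa/Gal HCs and 8.87 CPM in the other HCs. Glial markers summed to 21.4 CPM in the Nppa/Gal HCs and 21.5 CPM in the other HCs, and immune markers to 22.2 CPM in the Nppa/Gal HCs and 23.6 CPM in the other HCs. In the 77 cells, Erbb3 made up 19 of the 24 glial UMIs and C1qb 24 of the 25 immune UMIs. C1qb had 21.4 CPM in the Nppa/Gal HCs, 23.1 CPM in the other HCs and 2.92 CPM in the barcodes without Pou4f3 and Gfi1. Red blood cell markers summed to 12.5 CPM in the Nppa/Gal HCs and 6.32 CPM in the other HCs, and melanocyte markers to 6.23 CPM in the Nppa/Gal HCs and 5.77 CPM in the other HCs. Endothelial and pericyte markers had no UMI in the 77 cells.

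A second comparison held the limits fixed and used the 173 Nppa/Gal-low cells. These cells also differed in markers of cell type. Their 10 HC markers summed to 4108 CPM (cell median 4059), against 4892 CPM (cell median 5180) in the Nppa/Gal HCs. Their 10 supporting cell markers summed to 980 CPM (cell median 407), against 734 CPM (cell median 249.7). The part of these differences in the ratios below was not tested. Of 3788 genes tested, 17 (0.449%) were at least 2-fold higher in the Nppa/Gal HCs and 24 (0.634%) at least 2-fold lower, with a median log2 ratio of 0.03. The highest were Tmem91, Smtn, R3hdml, Wdr24, Uhrf1bp1l and Odf3b. Tmem91, a membrane protein gene, had 133 CPM (149 UMIs in 51 cells) in the Nppa/Gal HCs and 52.7 CPM in the Nppa/Gal-low cells, a ratio of 2.51. It was also one of the 22 genes higher than in all other HCs (64.7 CPM, ratio 2.05, 1.72 to 2.44), and its ratio stayed above 1 in all 16 other settings, with a lowest value of 1.42 against the Nppa/Gal cells outside the limits. Smtn, which encodes an actin-associated protein, had 69.4 CPM in the Nppa/Gal HCs and 28.3 CPM in the Nppa/Gal-low cells (ratio 2.45). R3hdml had 85.4 CPM in the Nppa/Gal HCs and 35.2 CPM in the Nppa/Gal-low cells (ratio 2.43). Wdr24, Uhrf1bp1l and Odf3b had ratios of 2.27, 2.26 and 2.25.

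The lowest ratios against the Nppa/Gal-low cells were those of Trim45 (0.0792), Hes5 (0.122), Spp1 (0.173), Ucma (0.218), Mdk (0.281) and Klf6 (0.306). Hes5 is a target of Notch in supporting cells and had 15.1 CPM in the Nppa/Gal HCs, 124 CPM in the Nppa/Gal-low cells and 35.8 CPM in the barcodes without Pou4f3 and Gfi1. Its 17 UMIs in the Nppa/Gal HCs lay in 9 cells, 7 of the UMIs in 1 cell. A Hes5 UMI was present in 11.7% of the Nppa/Gal HCs and 12.5% of all other HCs. Of the other HCs, 10 held 47.7% of their Hes5 UMIs. Mdk, the gene of the growth factor midkine, had 307 CPM in the Nppa/Gal HCs and 1091 CPM in the Nppa/Gal-low cells, with 1330 CPM in the barcodes without Pou4f3 and Gfi1. S100b had 198 CPM in the Nppa/Gal HCs and 614 CPM in the Nppa/Gal-low cells. The median depth of the Nppa/Gal-low cells was the lower one, at 4476 UMIs. Among cells of at least 4000 UMIs (71 and 97 cells), the ratios were 0.283 for Mdk, 0.109 for Hes5, 0.176 for Spp1, 2.40 for Tmem91, 1.58 for Calb2 and 1.29 for Anxa4.

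The lists took other values in this second comparison, over fewer genes. Of the 3788 genes tested there, 0.449% were at least 2-fold higher and 0.634% lower. The type I-associated list had a median log2 ratio of -1.18 over 3 genes, 2 of them at least 2-fold lower, and the immediate early and stress list -0.63 over 12 genes, 3 of them lower. The Notch list had -0.38 over 8 genes, 2 of them lower, and the type II-associated list 0.38 over 3 genes, none of them 2-fold apart.

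A further comparison used the 366 cells that also had Nppa or Gal but lay outside the limits. Of 8295 genes tested, 1 (0.0121%) was at least 2-fold higher and 76 (0.916%) at least 2-fold lower in the Nppa/Gal HCs. The higher one was Fabp7, named after its value was seen, with 36.5 CPM in the Nppa/Gal HCs and 14.8 CPM in the 366 cells, and 29 of its 41 UMIs lay in 1 cell. The ratio of Calb2 was 1.03 and that of Anxa4 1.03. Spp1 had a ratio of 0.463 and Nr4a1 of 0.414 between these groups.

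Levels were also set side by side for the cells of the 77 with both transcripts, Gal alone or Nppa alone. The genes in this paragraph were chosen after their values were seen, and the groups are small. The deepest of the 77 cells was 1 of the 11 with Nppa alone and held 42.6% of their UMIs, so their levels are also given without it. Cdkn1c, a cell cycle inhibitor gene, had 1705 CPM in the 42 cells with both transcripts, 2477 CPM in the 24 with Gal alone and 591 CPM (494 to 702) in the 11 with Nppa alone, or 934 CPM (773 to 1119) without the deepest cell. Grp had 222 CPM in the cells with both, 432 CPM in those with Gal alone and 68.2 CPM in those with Nppa alone, or 111 CPM (60.6 to 186) without the deepest cell. For Cdkn1c and Grp the cells with Nppa alone thus had the lowest level either way. Calb2 had 637 CPM in the cells with both, 411 CPM in those with Gal alone and 509 CPM in those with Nppa alone, or 704 CPM without the deepest cell. Xirp2, an actin-binding protein gene of HCs, had 240.0 CPM in the cells with both, 122 CPM in those with Gal alone and 218 CPM in those with Nppa alone, or 317 CPM without it. Anxa4 had 714 CPM in the cells with both, 799 CPM in those with Gal alone and 550.1 CPM in those with Nppa alone, or 799 CPM without it, so for Calb2, Xirp2 and Anxa4 the order of the groups rested on that cell. The median depth was 16147 UMIs with both, 7099.5 with Gal alone and 15614 with Nppa alone, and the part of depth in these differences was not tested.

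Levels were also set side by side over the amount of Nppa and Gal. The cells were grouped by that amount, so the order of Gal over the groups was set in advance. In the 26 cells with 2 or 3 UMIs of Nppa and Gal, the 28 with 4 to 9 and the 23 with at least 10, Gal had 130.4, 286 and 1013 CPM. Over the same order, Calb2 had 627, 538 and 552 CPM, Anxa4 779, 642 and 700.4 CPM, and Cdkn1c 1893, 1339 and 1764 CPM. For these 3 genes the interval of the ratio between the cells with at least 10 UMIs and those with 2 or 3 included 1. The deepest of the Nppa/Gal HCs, a cell with Nppa alone, lay in the group with 4 to 9 UMIs. It held 93637 of the 401886 UMIs of that group. Levels of that group were not computed without it, and its part in the lower middle values was not tested. Xirp2 had 183, 172 and 267 CPM, a ratio of 1.46 (1.04 to 2.06) for the cells with at least 10 UMIs over those with 2 or 3. Of the other genes examined, all chosen with results known, the ratio was above 1 with an interval that left out 1 for Tnc (1.58, 1.08 to 2.38), Jun (1.39, 1.07 to 1.82) and Fos (1.32, 1.08 to 1.62). It was below 1 in the same way for Pvalb (0.735, 0.578 to 0.935), the gene of the calcium buffer parvalbumin, and S100a1 (0.900, 0.842 to 0.961). These intervals are not adjusted for the number of genes examined. The median depth of these groups was 8751, 11506.5 and 19161 UMIs, and the part of depth in these ratios was not tested.

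At E14, some of the HCs chosen in the same way carried Nppa or Gal. Among 256 E14 HCs, with a median of 15008.5 UMIs, 29 had at least 2 UMIs of both genes together and 7 (2.73%, 1.11 to 5.55) met the whole rule. Gal had 37.5 CPM and Nppa 5.98 CPM over the E14 HCs. Calb2 had 190.4 CPM and Anxa4 514 CPM there. With 1 library at each age, the ages were not compared.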

How the data were processed

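The authors deposited unnormalized UMI counts for each gene and barcode, produced with Cell Ranger 3.1.0 from 10x Genomics libraries, 1 per age. Later Seurat 4.1.1 steps named in the labels do not enter these counts and were left out. The P2 library held 57003553 UMIs. HCs, Nppa/Gal HCs and the lists were chosen with earlier results of these data known. Doublets were kept; leaving out the 5.00% of barcodes with the highest Scrublet score was an alternative. Of the barcodes, 23 occurred in both libraries, none of them among the 77 cells.

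UMIs were summed per group and scaled to CPM. Intervals are at 95%: exact Poisson for levels, conditional binomial for ratios of 2 levels, Clopper-Pearson for shares. No p-value was computed, because cells of 1 library are not replicates. A gene was called at a ratio of at least 2 or at most 0.5, given at least 100 UMIs over both groups. A group without UMIs was set to 3 UMIs for a lower bound. The genes named were those of the rule and its markers, the 12 with the largest ratio each way against the other HCs and the 6 each way against the Nppa/Gal-low cells (a UMI in at least 10% of cells of the higher group), and of each of 18 lists the 3 with the highest level and all called ones. Values of some of these are printed, some genes are not reported here, and further genes were named for their known role. Alternatives changed the cell filter, the thresholds, the scaling, the weight of cells, the depth and the cells compared. Code was tested on simulated data. Python 3.11.15, numpy 2.4.6, scipy 1.17.1, pandas 2.3.3, scanpy 1.11.5 and matplotlib 3.10.9 were used.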

Additional observations from a re-analysis of the deposited data

Results flagged for a closer look

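The E14 library entered none of the comparisons, and 7 of its 256 HCs met the same rule. These 7 cells held 21 Gal UMIs (225 CPM, 139 to 344), 2 Nppa UMIs and 83 Anxa4 UMIs (889 CPM). Every one of them had a Gal UMI, with 1 to 6 per cell. E14 barcodes without Pou4f3 and Gfi1 had 0.872 CPM of Gal and 0.0109 CPM of Nppa.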

How the results depend on the processing

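The number of Nppa/Gal HCs was 118 (11.5% of HCs) with at least 1 UMI of Nppa and Gal and 151 (20.6%) with the rule applied after thinning to 4000 UMIs, of which 38 were among the 77; with at least 3 UMIs the share was 5.83%. Genes at least 2-fold higher numbered 13 with at least 1 UMI, 39 with at least 2 UMIs per 10000, 60 with equal weight of cells, 13 with cells thinned, 1 against the other Nppa/Gal HCs, 1044 with no minimum of UMIs, 144 with a minimum of 30 and 241 at 1.5-fold. Genes at least 2-fold lower numbered 691 with at least 2 UMIs per 10000, 218 with the rule after thinning, 24 against the Nppa/Gal-low cells, 834 with equal weight, 76 against the other Nppa/Gal HCs, 5123 with no minimum, 974 with a minimum of 30 and 1069 at 1.5-fold. The lower minimum and fold admit more genes by construction; the cause of the other differences was not tested. Ratios that turned were those of Bmp3 (0.534) and Fxyd3 (0.979) with doublets left out, Bmp3 (0.357), Fxyd3 (0.738), Pbld2 (0.973) and Trim46 (1.04) with the rule after thinning, Atp2a3 (1.16) against the Nppa/Gal-low cells, and Bmp3 (0.362), Calca (1.40), Hist2h2be (0.596) and Nefh (1.08) with cells thinned. Calca, Nefh and Atp2a3 had only 2, 4 and 1 UMIs in the 77 cells, so their turns rest on few molecules. Of 40 called genes named by the rule, between 0 and 21 were no longer called in 16 settings, most with the rule after thinning and 16 against the other Nppa/Gal HCs. Scaling by the median of ratios moved all log2 ratios by 0.05 and TMM by 0.01. Leaving out doublets removed 7 of the 77 cells (9.09%) and 72 of the other HCs (7.56%). The settings on the deepest cell, on cells of at least 4000 UMIs, on the other Nppa/Gal HCs and on shared barcodes were chosen after seeing the data. No paired analysis was possible because each age has 1 library.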
